A study of Mus musculus with 4 samples.

Results

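The E10.5-only desert regions were the stretches of accessible chromatin that forelimb buds had in the E10.5 list but not in the E9.5 list, and that lay far from the start of any protein-coding gene. They were chosen by rule: an E10.5 region with no overlap of 1 bp or more with an E9.5 region, on an autosome, with its centre at least 100 kb from the nearest start of a protein-coding transcript. The rule held for 5865 of the 46765 regions of the E10.5 list, which was 12.8% of the 45648 autosomal ones. Of all autosomal E10.5 regions 35.0% had no E9.5 overlap, and of the 8998 in gene deserts 65.2% had none, which gives the 5865 described here. Since absence from the E9.5 list chose them, that absence is no finding, and their scores come from the same lists, so all values below describe the regions and carry no test.

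The regions were mapped by ATAC-seq, in which a transposase inserts sequencing adapters into open chromatin, in wild-type NMRI mouse embryos. The E10.5 samples were forelimb bud pairs taken from single embryos, although their tissue label also names hindlimb buds. The E9.5 samples, which the protocol places at E9.75, were forelimb bud pairs that kept the attached part of the trunk, so that stage and trunk tissue cannot be told apart. The 2 replicates of a stage had been combined into 1 list, so no value has a replicate error, read depth is unknown, and a region missing from a list had not reached the calling threshold in it, which does not show that the site was closed.

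Gene deserts are long stretches of chromosome without protein-coding gene starts. Many flank genes for developmental regulators and hold enhancers, short elements where transcription factors bind and act on a promoter over a long distance. In limb buds, genes such as Bmp2, Fgf10, Gli3 and the Hox genes are known to be controlled by remote enhancers, and an accessible region is a place where such an element may lie. Accessibility alone does not tell which gene, if any, a region acts on, so genes are named here only as neighbours.

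The central 200 bases of 8 regions are shown because they are the sites to which the results below return. The first 4 are among the 10 highest-scoring E10.5-only desert regions, and the other 4 are the highest-scoring regions of 4 of the 5 chains with most closely spaced regions. Each is named by the protein-coding genes on either side, with positions in mm9 (NCBIM37), and is the plus strand of the reference genome. Capitals mark 6 short motifs on either strand: TAATTA (homeodomain), TTTATNG (bound by HOX13-type proteins), TGACAG (PKNOX and MEIS), CAGCTG and CATCTG (E-boxes of basic helix-loop-helix proteins) and AGGTCA (nuclear receptors such as NR2F). A match is a description of the letters and not evidence of binding.
4931417E11Rik-Gm9008, chr6:73561523-73561722: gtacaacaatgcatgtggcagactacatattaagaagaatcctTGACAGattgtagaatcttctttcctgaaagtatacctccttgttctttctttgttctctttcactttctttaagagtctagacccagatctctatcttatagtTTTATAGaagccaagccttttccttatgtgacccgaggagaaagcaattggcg
Il7-Stmn2, chr3:7943868-7944067: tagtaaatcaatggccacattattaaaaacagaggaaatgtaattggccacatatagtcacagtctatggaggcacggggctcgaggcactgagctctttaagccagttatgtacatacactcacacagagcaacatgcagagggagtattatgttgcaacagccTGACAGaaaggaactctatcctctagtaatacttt
Slc8a1-Pkdcc, chr17:82636922-82637121: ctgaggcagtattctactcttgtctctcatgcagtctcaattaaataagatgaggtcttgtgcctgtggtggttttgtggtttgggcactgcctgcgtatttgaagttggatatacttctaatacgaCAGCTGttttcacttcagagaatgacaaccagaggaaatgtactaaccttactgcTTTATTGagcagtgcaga
Bmp2-Hao1, chr2:134040827-134041026: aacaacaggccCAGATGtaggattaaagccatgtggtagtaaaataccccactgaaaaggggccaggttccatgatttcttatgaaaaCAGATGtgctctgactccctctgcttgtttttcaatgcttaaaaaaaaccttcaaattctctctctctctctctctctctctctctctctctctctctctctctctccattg
Epha7-Map3k7, chr4:31917452-31917651: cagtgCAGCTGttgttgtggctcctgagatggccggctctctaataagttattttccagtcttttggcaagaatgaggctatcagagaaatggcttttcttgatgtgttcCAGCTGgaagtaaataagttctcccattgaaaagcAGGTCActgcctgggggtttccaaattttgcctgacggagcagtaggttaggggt
Pax1-Foxa2, chr2:147517632-147517831: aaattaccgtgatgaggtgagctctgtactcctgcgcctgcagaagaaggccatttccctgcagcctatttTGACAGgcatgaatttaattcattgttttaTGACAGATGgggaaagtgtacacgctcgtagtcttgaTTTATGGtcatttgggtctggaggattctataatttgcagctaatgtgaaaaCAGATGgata
Alcam-Zpld1, chr16:55142959-55143158: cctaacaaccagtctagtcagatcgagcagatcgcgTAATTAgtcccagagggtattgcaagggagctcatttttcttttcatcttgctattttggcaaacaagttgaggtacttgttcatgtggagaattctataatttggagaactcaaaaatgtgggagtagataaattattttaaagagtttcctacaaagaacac
Ppp4r2-Pdzrn3, chr6:100943437-100943636: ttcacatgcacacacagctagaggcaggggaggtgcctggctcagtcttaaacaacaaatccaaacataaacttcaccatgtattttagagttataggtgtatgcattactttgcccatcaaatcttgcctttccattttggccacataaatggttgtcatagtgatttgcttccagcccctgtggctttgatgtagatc

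In the sequence between Pax1 and Foxa2, a TGACAG match and an E-box overlapped, and 5 marked motifs stood in 200 bases, the most of these 8. The sequence between Ppp4r2 and Pdzrn3 held none of the 6. The sequence beside Bmp2 ended in a long run of CT repeats.

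Scores of the E10.5-only desert regions were low to middling within their list. The score, set by the authors, is 10 times the negative log10 of the best peak-calling p-value among the replicates, and it is compared here only within the E10.5 list. The median was 166 (95% interval of the median 163 to 169), and the 25th and 75th percentiles were 120 and 274. Desert regions shared with E9.5 had a median of 268 (256 to 279), and the E10.5-only regions that lay from 2.5 to 100 kb from a start had 146 (144 to 148). The median of the E10.5-only desert regions was lower than that of the shared ones in each of the 19 autosomes, with a mean difference of -100.04 ± 25.5 (SD over autosomes, n = 19). A score of 1000 or more was reached by 67 of them, or 1.14%, against 264 or 8.43% of the shared desert regions. Among desert regions the share without an E9.5 partner was 80.1% at scores under 100 and 20.2% at 1000 or more, and how far the call of E10.5-only reflects the threshold of the E9.5 list was not tested. Regions were also narrower than the shared ones, with a median width of 888 bp (882 to 894) against 1014 bp (997 to 1032). Width rose with score across the regions (Spearman's rho 0.75, n = 5865, both from the same reads).

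**Figure D1:**
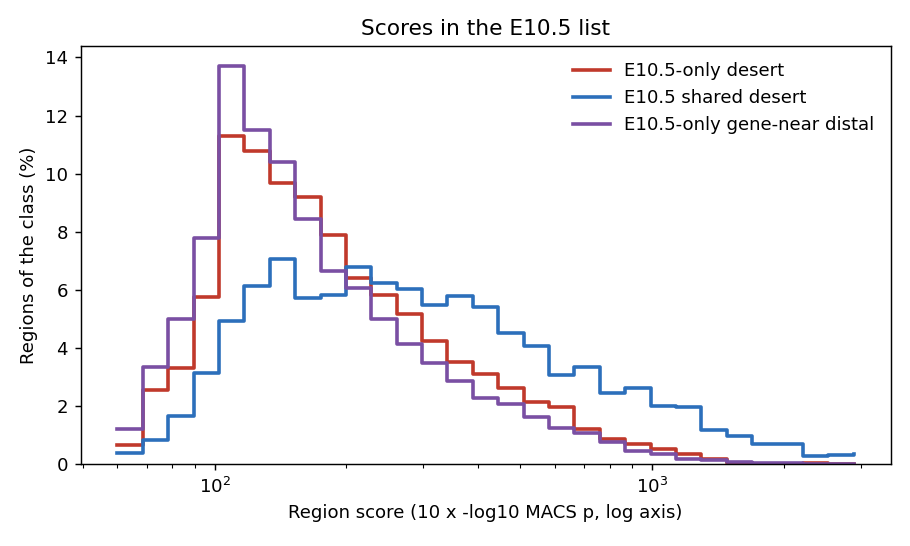
Distribution of region scores in the E10.5 list on a log axis, as the percentage of each class in equal log bins, for E10.5-only desert regions, desert regions shared with E9.5, and E10.5-only regions from 2.5 to 100 kb from a start. The E10.5-only desert regions peak just above 100 and thin out towards 1000, where the shared regions still hold 8.43% of their number.

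The rule has 2 thresholds, and regions lay close to both. A region near Ptprn2 was counted in at 100008 bp from a start, and one near Dync1i1 fell out at 99999 bp. A region whose nearest start was that of Twist2 was counted in although it abutted an E9.5 region at a distance of 0 bp, and one near Fam172a was left out for an overlap of 4 bp. Such cases were few: 188 regions, or 3.21%, lay within 1 kb of an E9.5 region. The median distance to the nearest E9.5 region was 49.9 kb, and 1852 regions, or 31.6%, had none within 100 kb.

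The 10 highest-scoring regions stood beside genes of many kinds. The top score, 2648, belonged to a region 142 kb from the start of 4931417E11Rik, and the next, 2440, to one between Il7, which encodes an interleukin, and Stmn2, which encodes a microtubule-binding protein of neurons. A region 2240 kb from Cdh8, a cadherin gene, scored 2327. A region between Klhl1 and Dach1 scored 1938, and Dach1 encodes a transcriptional cofactor of the limb bud and eye. Among the other flanking genes, 2 are tied to skeletal or limb development: Pkdcc, which encodes a secreted kinase and lay 978 kb from a region of score 1633, and Bmp2, which encodes a bone morphogenetic protein and lay 663 kb from one of 1496. Each of the 10 stood between the 92.3 and 98.2 percentiles of all E10.5 scores. The distance to the nearest E9.5 region ranged from 26.2 kb, for the region inside the Notch ligand gene Dner, to 265 kb, for the one beside Bmp2.

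The E10.5-only desert regions were poorer in G+C than the other desert regions. Their median G+C content over the central 300 bp was 42.9% (42.5 to 43.2), against 47.5% (47.5 to 47.8) in shared desert regions and 48.2% (47.8 to 48.5) in E9.5-only desert regions. Low G+C content was shared by E10.5-only regions outside deserts: those from 2.5 to 100 kb from a start had a median of 45.2%. All autosomal E10.5-only regions, those in deserts included, had 44.2%, against 55.5% of all autosomal shared ones. The latter lay nearer to starts, at a median of 3.48 kb against 58.0 kb, so that this contrast mixes distance with sharing. The difference from E9.5-only regions was -5.26 ± 0.87 percentage points (mean ± SD over 19 autosomes) and was negative in all 19. Of the E10.5-only desert regions 29.7% had a G+C content under 40%, compared with 9.48% of shared and 6.50% of E9.5-only desert regions. They were still richer in G+C than their surroundings. The median difference between a region and the mean of its own windows 5 kb to either side was 2.92 ± 0.51 points (mean ± SD over 19 autosomes). The median G+C content of windows placed every 10 kb through the deserts was 39.2%. At least 1 CpG was held by 89.97% of the regions and by 75.6% of those desert windows, and the median ratio of observed to expected CpG was 0.20.

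The share of desert regions that were E10.5-only changed with G+C content in 1 list and not to the same extent in the other. In the E10.5 list it was 87.7% (95% Wilson interval 84.4 to 90.4) of regions under 35% G+C, 74.6% (73.0 to 76.2) from 40% to 45% and 20.9% (17.5 to 24.7) at 55% or more. In the E9.5 list the share without a partner was 42.9% (29.1 to 57.8), 40.4% (37.6 to 43.2) and 36.3% (32.7 to 40.1) in the same bands. Library preparation, mapping and depth can shift G+C content between libraries, and their part in this difference was not tested. Score had little relation to G+C content among the E10.5-only desert regions (rho -0.11, n = 5865). In the higher-scoring 50% of each list, with overlap called anew between them, the difference from E9.5-only regions was -5.65 points.

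**Figure D2:**
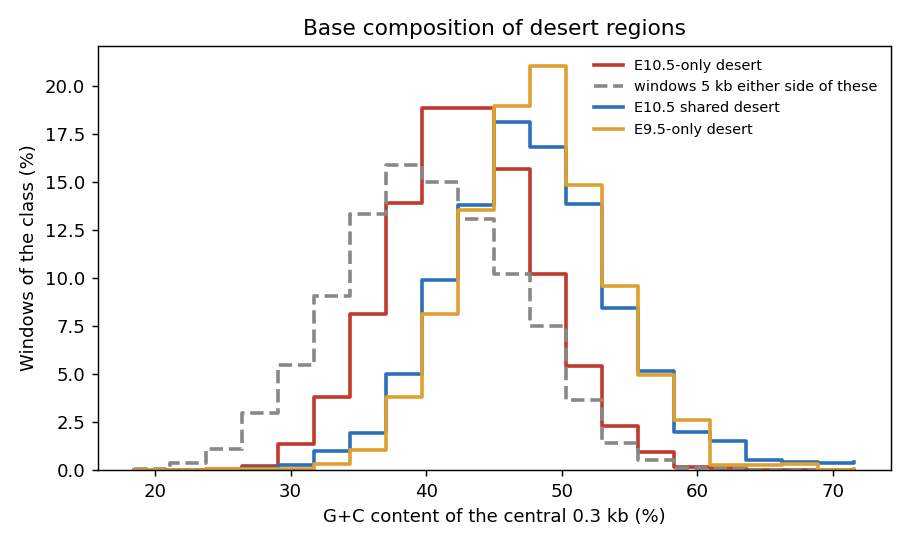
G+C content of the central 300 bp as the percentage of windows in each class, for E10.5-only, shared and E9.5-only desert regions and, dashed, for windows 5 kb to either side of the E10.5-only regions. The E10.5-only regions, with a median of 42.9%, lie between their flanks and the other desert classes, whose medians are 47.5% and 48.2%.

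Not all of these regions were intergenic. Protein-coding genes held 1293 of them, or 22.0% (21.0 to 23.1), nearly all in introns of long genes, and 31 centres were in a coding gene's exon. The share was 25.1% (23.4 to 26.9) for E9.5-only desert regions, and the difference between them changed sign among autosomes, being positive in 7 of 19. E10.5-only regions from 2.5 to 100 kb from a start were inside genes in 52.6% of cases. The 473 host genes were led by Macrod2, a very long gene for a mono-ADP-ribosyl hydrolase, with 23 regions beside 7 shared and 8 E9.5-only ones. Nrxn3, which encodes a presynaptic adhesion protein, held 16, and the receptor phosphatase genes Ptprd and Ptprm held 13 each. Gpc5 and Gpc6, which encode heparan sulphate proteoglycans of the cell surface, held 12 and 11. The counts of the other classes varied among hosts: Ptprn2 held 10 with 18 shared and 5 E9.5-only desert regions, Epha3 held 9 with 5 shared and no E9.5-only one, and Fmn2 held 9 with neither. At 200 kb or more from a start the share inside genes was 13.5%. A start of another gene type lay within 100 kb of 2171 regions, or 37.0%, and within 2.5 kb of 80, or 1.36%.

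The regions became sparser with distance from genes, but less so than the other classes did. Desert sequence, without assembly gaps, amounted to 855 Mb, which was 34.6% of the length of the autosomes with gaps included. It held 6.86 E10.5-only regions per Mb, compared with 3.66 shared and 2.72 E9.5-only ones. Outside deserts E10.5-only regions had a density of 6.24 per Mb, but the length used there includes all assembly gaps, so this value is biased low beside that of the deserts. From 100 to 200 kb from the nearest start there were 8.36 E10.5-only regions per Mb, and at 1000 kb or more there were 3.16. Shared regions went from 5.60 to 0.52 per Mb over the same range. The share of desert regions of the E10.5 list that were E10.5-only was accordingly 59.9% (58.4 to 61.4) in the nearest band and 85.9% (80.7 to 89.9) in the farthest. In the farthest band their median G+C content was 40.2%, against 43.9% in the nearest. The median distance to a start was 228 kb and the largest was 2445 kb. There were 2.52 E10.5-only for each E9.5-only desert region, while outside deserts the ratio was 0.98. Autosomes ranged from 4.98 regions per Mb of desert on chromosome 7 to 9.03 on chromosome 10, with a mean of 6.82 ± 1.04 (SD, n = 19).

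Counted by stretch between neighbouring gene starts, the E10.5-only regions were widely spread. Of 2287 stretches with desert sequence, 1414 held at least 1, and 452 held 5 or more, which together had 68.2% of the regions. The 145 stretches with 10 or more had 34.5% of the regions in 26.9% of the desert sequence. Only 3 of the 216 stretches with 1 Mb or more of desert held none: one beside olfactory receptor genes, one in the immunoglobulin heavy chain locus, and one between Tbc1d22a and Fam19a5, which held 4 shared regions.

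The 15 stretches with most regions had between 20 and 29 each. Chromosome 12 had 3 of them: the stretch from 1700019M22Rik to Galc had 29 E10.5-only regions, the one from Sel1l to Gm9726 had 28 and the one from Gm9726 to Flrt2, which encodes a guidance protein with leucine-rich repeats, had 22. E9.5-only regions in the same 3 numbered 3, 1 and 4. The stretch between Epha7, an ephrin receptor gene, and Map3k7 had 28 in 3.0 Mb of desert, and the stretch between Gm1840 and Efnb2, which encodes an ephrin ligand, had 27. The desert before Slit2, whose product is the ligand of ROBO receptors, had 26, with a top score of 1403. The protocadherin gene Pcdh17 and Diap3 bounded 25 regions, of which 7 were inside Diap3. Lphn2, the gene of a receptor for FLRT proteins, bounded 24. The laminin gene Lama4 and the adhesion genes Igsf11 and Lsamp bounded stretches with 22, and the synaptic gene Lrrtm3 one with 21.

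Other stretches among these 15 were beside transcription factor genes. The desert between Nr2f1, an orphan nuclear receptor gene, and Arrdc3 had 25 E10.5-only regions together with 16 shared and 11 E9.5-only ones. Zeb2, which encodes a zinc-finger repressor, was followed by 25 with 15 shared. The stretch between Klhl1 and Dach1 had 20, and these had the highest median score of the 15, at 289, and the lowest median G+C content, at 36.7%. The stretch between the adhesion gene Alcam and Zpld1 had 21 E10.5-only, 5 shared and no E9.5-only regions. E10.5-only regions outnumbered E9.5-only ones in all 15, and in 432 of the 452 stretches with 5 or more, but both stretch sets had been chosen for a high E10.5-only count.

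**Figure D3:**
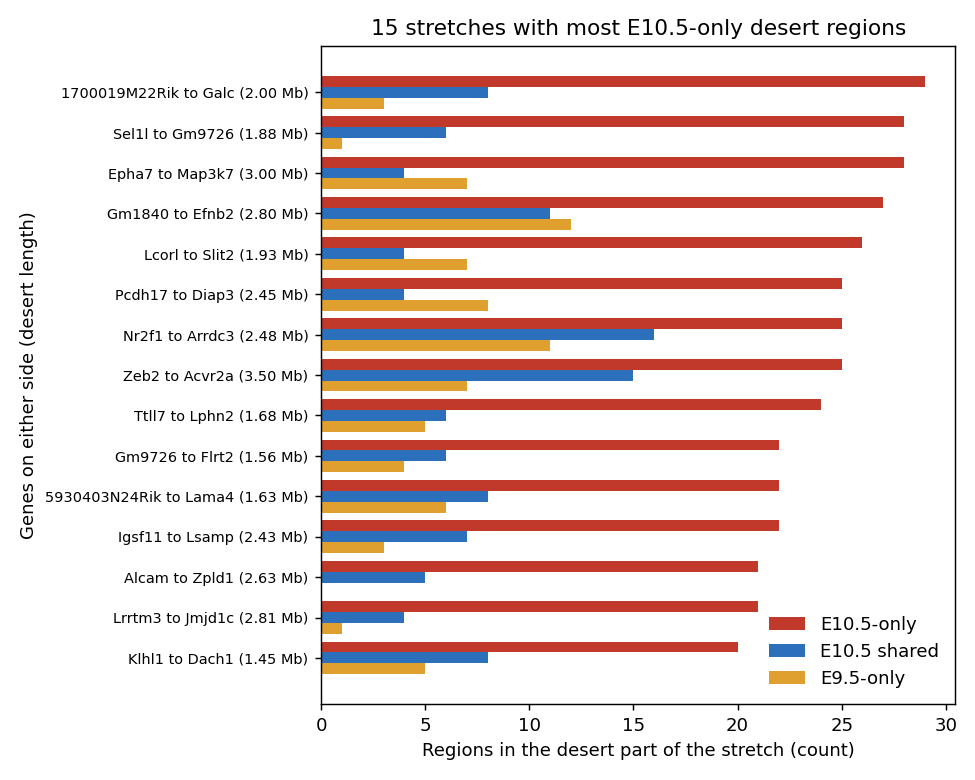
Counts of E10.5-only, shared (E10.5 list) and E9.5-only desert regions in the 15 stretches between neighbouring gene starts with most E10.5-only regions, with the length of desert sequence in each label. Bars for E10.5-only regions run from 20 to 29, and shared regions come closest in the stretch from Nr2f1 to Arrdc3, with 16.

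Among stretches with 5 or more regions, the 5 highest densities were in short ones, 3 of them inside genes with alternative starts. An intron of Smyd3, which encodes a lysine methyltransferase, held 6 regions in 0.06 Mb. Plxdc2 held 5 in 0.08 Mb and Tox, which encodes a nuclear protein of the HMG-box group, held 6 in 0.10 Mb. The stretch between Hmga2, which encodes a chromatin protein of growing embryonic tissue, and 4921513I03Rik held 5 in 0.09 Mb.

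Along the chromosome, E10.5-only desert regions were closer to each other than the regions of the smaller classes were. The median gap between neighbours was 88.2 kb (83.8 to 93.1). It was 157 kb for shared and 239 kb for E9.5-only desert regions, of which there were fewer. Another E10.5-only desert region lay within 20 kb of 35.5% (34.3 to 36.7), compared with 33.0% (31.4 to 34.7) and 28.2% (26.4 to 30.1) in those classes. Since a class with more regions has smaller gaps, these values say nothing on whether one class is more clustered. Of all 5865 regions 3785 had no neighbour of their class within 20 kb, and the other 2080 formed 897 chains, of which 59 had 4 or more regions. Regions in chains had a median score of 175 and those alone 162, with median G+C contents of 43.0% and 42.9%. A shared region lay within 20 kb of 20.4%.

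Of the 5 chains with most regions, 3 had 7 members, and the other places went to the 2 shortest of the 3 chains with 6. The first spanned 33.1 kb and ended 124 kb before the start of Map3k7, with scores from 94.9 to 425 and 1 shared region inside. The second, of 51.4 kb, lay inside Epha3, and its G+C contents ran from 29.2% to 51.2%. The third, of 59.4 kb, lay between Pax1 and Foxa2, transcription factor genes of the sclerotome and of the floor plate and endoderm, at 312 kb from Pax1 and 307 kb from Foxa2. Its highest score was 408, and it had 1 E9.5-only region inside and no shared one.

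The other chains had 6 members each and higher scores. In the chain before Zpld1, 2 regions scored 1402 and 1158, far above the other 4, which ranged from 113 to 365. The chain between Ppp4r2 and Pdzrn3, whose product is a ubiquitin ligase, was the most even: its scores were 325, 482, 307, 332, 635 and 652, so that each exceeded the median of its class. No shared or E9.5-only region lay within its 35.4 kb.

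Deserts beside limb bud genes held more E10.5-only regions per Mb than all deserts together. For 31 signalling genes of the limb bud, 19 of which flank desert sequence, there were 94 regions, or 13.2 per Mb against 6.86 over all deserts. For 51 limb bud transcription factor genes, of which 50 were matched, there were 148 regions or 13.0 per Mb. Both lists count the 3 regions in the stretch that Bmp7 and Tcfap2c flank. The deserts of both lists lay nearer to gene starts than most, so the count that all deserts would give at the same distances was computed too. It was 55.5 and 84.4, and the observed counts were 1.69 and 1.75 times as high. Limb bud lists did not stand alone in this: the same ratio was 1.69 for muscle precursor genes, 1.64 for genes of trunk, somite and neural tube, 1.35 for vessel and blood, 1.28 for cartilage and skeleton, 1.27 for other developmental transcription factors, 1.19 for axon guidance and synaptic adhesion, 0.82 for cadherins and protocadherins and 0.70 for olfactory and vomeronasal receptors. Shared regions were denser beside the limb bud lists too. They had 7.14 and 7.76 per Mb against 3.66 in all deserts, and of the E10.5 desert regions there 64.8% and 62.7% were E10.5-only, close to the 65.2% of all deserts.

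Bmp2, the ligand gene, was the signalling gene with most neighbours, with 28 E10.5-only regions, 6 shared and 4 E9.5-only ones in 1.21 Mb of desert. The 12 on its Fermt1 side scored from 73.1 to 902, and the strongest of them lay 269 kb from the Bmp2 start. The 16 on its Hao1 side scored from 73.2 to 1496, with others of 583 at 187 kb and 583 at 525 kb. The Hao1 side held 1 shared and no E9.5-only region.

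Gli3, which encodes the transcriptional effector and repressor of the hedgehog pathway, had 12 E10.5-only neighbours. The strongest scored 897 and lay 120 kb from its start, beside one of 617 at 122 kb, and the next strongest, of 698, lay 403 kb away on the other side. Fgf10, which encodes the growth factor that sustains limb bud outgrowth, had 9, of which 8 lay on its Nnt side, with the top scores of 558 and 381 at 110 and 105 kb. Wnt5a, a ligand gene of limb elongation, also had 9, with a top score of 301.4.

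Among the limb transcription factor genes, the T-box gene Tbx18 had 18 E10.5-only neighbours with a median score of 293, well above the 166 of all. The strongest scored 1168 at 354 kb on one side and 1061 at 293 kb on the other. Osr1, a zinc-finger gene of lateral mesoderm and connective tissue, had 15, with a top score of 291. Shox2, a homeobox gene of the proximal limb, had 13 in 0.48 Mb on its Veph1 side, scoring from 73.8 to 565, with 2 shared and no E9.5-only region. Hand2, a posterior limb bud gene chosen once its values were known, had 9 on its Fbxo8 side, the strongest at 187 and 405 kb with scores of 608 and 601.

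Beside 4 lists of genes of other tissues the density lay between 9.81 and 12.7 regions per Mb. For cartilage and skeleton genes there were 49 regions or 9.81 per Mb, led by the osteoblast regulator Runx2 with 13, Sox5 with 9 and Sox6 with 8, and 52.1% of the E10.5 desert regions there were E10.5-only. Muscle precursor genes had 47 or 12.7 per Mb, with 10 beside Eya1 and 7 beside Meox2, and the share was 73.4%. Genes of trunk, somite and neural tube had 52 or 12.4 per Mb, led by Pax1 with 16, Sox2 with 15 and Isl1 with 7. Beside that last list E9.5-only regions were also dense, at 9.78 per Mb against 2.72 in all deserts. Vessel and blood genes had 20 or 9.90 per Mb, with 13 beside Cdh5, 6 beside Runx1 and 1 beside Sox17. The 6 beside Runx1 are counted in the cartilage and skeleton list too.

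Axon guidance and synaptic adhesion genes bounded 552 E10.5-only regions, or 7.34 per Mb, and 75.1% of the E10.5 desert regions beside them were E10.5-only. All 43 of the genes that flank desert sequence had at least 1, led by Epha7 with 39, Robo1 with 35 and Robo2 with 31, and the stretch between the latter counts for both. Cadherin and protocadherin genes had the highest share, 78.9%, at a low density of 4.40 per Mb, led by Pcdh17 with 41, Pcdh9 with 23 and Pcdh7 with 20. The E10.5-only regions beside both lists were low in G+C, with medians of 41.2% and 40.9%. Over all deserts the E10.5-only share also rose with distance from a start, from 59.9% at 100 to 200 kb to 85.9% at 1000 kb or more. Unlike the counts, the shares were not compared at the same distances. The part of base composition and of distance in these shares was not tested. For 75 other developmental transcription factor genes, 70 of which were matched, there were 384 or 8.64 per Mb, led by Nr2f1 with 28, Zeb2 with 25 and Dach1 with 24. Olfactory and vomeronasal receptor genes, a group with no known part in limb buds, had 14 or 5.60 per Mb, with 6 beside Olfr1505, 3 beside Olfr267 and 2 beside Vmn2r7. The median G+C content of these 14 was 40.5%, and 50% of the E10.5 desert regions there were E10.5-only.

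The desert between Kcnj2 and Gm11678, chosen once its values were known because Sox9, the master regulator of cartilage, is the next named gene beyond it, held 17 E10.5-only regions, 7 shared and 15 E9.5-only ones. Their scores ranged from 93.0 to 614. The strongest lay 763 kb from Kcnj2. Sox9 does not itself bound this desert. The desert sequence that it does flank, 0.73 Mb, held 4 E10.5-only, 9 shared and 16 E9.5-only regions. That was 5.47 E10.5-only regions per Mb, below the 6.86 of all deserts.

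**Figure D4:**
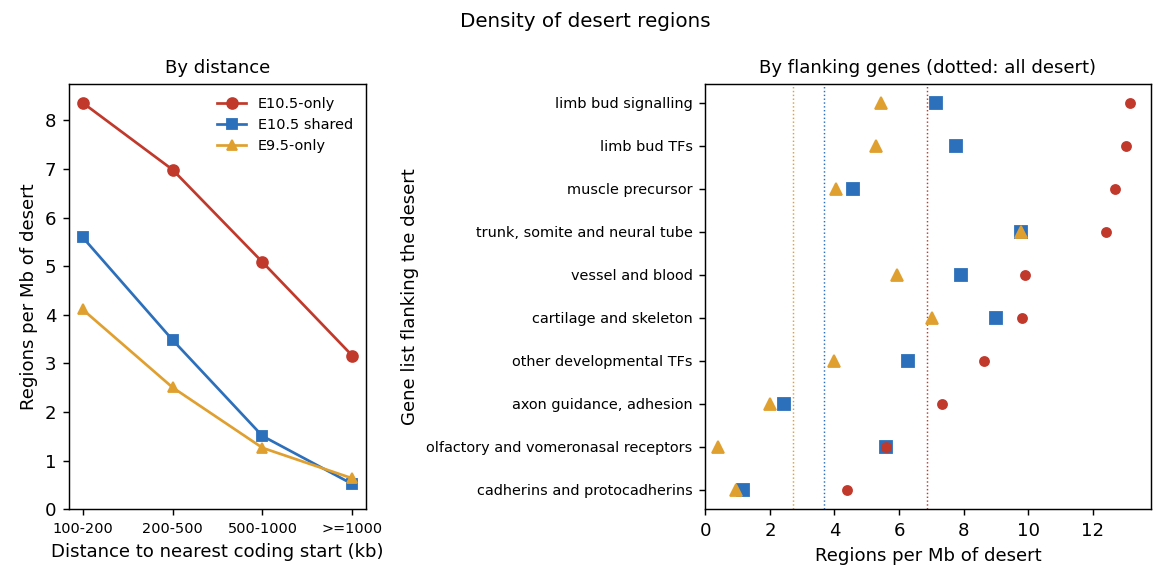
Left, regions per Mb of desert sequence in 4 bands of distance from the nearest coding gene start; right, regions per Mb of desert beside the 10 gene lists, with dotted lines at the density over all deserts. E10.5-only regions fall from 8.36 to 3.16 per Mb with distance, and beside limb bud signalling and transcription factor genes they reach 13.2 and 13.0 per Mb against 6.86 in all deserts.

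Most genes nearest to these regions had an accessible promoter at both stages. Of 1785 genes that were the nearest coding gene of at least 1 E10.5-only desert region, 1340 or 75.1% had a region within 2.5 kb of a start in both lists, compared with 71.4% of all genes that flank desert sequence. Only 26, or 1.46%, had one in the E10.5 list alone, which was also the 1.46% of all desert-flanking genes. They included Zpld1, nearest to 11 regions, and Dcn, which encodes the matrix proteoglycan decorin and was nearest to 5. Gm9726 was nearest to most regions, 33, and had no promoter region at either stage, while Bmp2, nearest to 17, had one at both.

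Short motifs differed between the desert classes. In the central 300 bp, TAATTA was held by 18.7% (17.8 to 19.8) of E10.5-only desert regions, against 11.1% of shared and 9.26% of E9.5-only desert regions, 12.6% of the windows 5 kb to either side and 8.80% of all autosomal E10.5 regions. TTTATNG was held by 25.3%, against 18.6%, 14.5%, 20.6% and 14.1% in the same order. Both motifs are rich in A and T, so they were also counted among windows of 40% to 50% G+C content, where TAATTA was in 16.5% (15.3 to 17.8) of E10.5-only, 12.3% (10.9 to 13.9) of shared and 10.9% (9.35 to 12.7) of E9.5-only desert regions and 7.40% of flanking windows. TTTATNG was in 24.1%, 20.4%, 17.5% and 15.3% of these.

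Of the 3 E-boxes searched, 2 were more common than in the flanking windows. CATCTG was held by 35.2% of E10.5-only desert regions and 21.2% of flanking windows, but also by 33.6% of shared and 33.5% of E9.5-only desert regions and 25.4% of all E10.5 regions. CAGCTG, its palindromic relative, was in 21.7% against 9.94% of flanking windows and 21.8% of all E10.5 regions. That was below the 25.4% of shared and 28.6% of E9.5-only desert regions. TGACAG was in 25.6% of E10.5-only, 25.7% of shared and 30.8% of E9.5-only desert regions, with 18.1% of flanking windows and 20.9% of all E10.5 regions.

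Other motifs were less common in E10.5-only than in E9.5-only desert regions. AGGTCA was in 20.3% (19.3 to 21.4) against 32.5% (30.7 to 34.5), with 14.9% of flanking windows and 17.4% of all E10.5 regions. ACAATG, a SOX motif, was in 16.6% against 24.8%, with 19.6% of flanking windows and 11.6% of all E10.5 regions. AGATAA, which GATA factors bind, was in 13.7% against 20.4%, with 21.8% of flanking windows and 9.71% of all. The SMAD half-site CAGACA was in 23.7% against 32.5%, with 22.4% and 22.9%. Shared desert regions held the 4 motifs at 23.5%, 15.3%, 13.9% and 27.6%. For ACAATG and AGATAA they were thus close to the E10.5-only regions, and the E9.5-only regions stood apart. In the band of 40% to 50% G+C the first 3 stood at 21.0% against 33.7%, 16.1% against 28.6% and 12.2% against 22.7%. CAGACA stood there at 25.5% against 32.7%, slightly under the 26.1% of flanking windows, and trunk tissue in the E9.5 samples cannot be told apart from stage here either.

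The remaining motifs are given by their shares of E10.5-only desert, E9.5-only desert and all autosomal E10.5 regions. The last of these had a median G+C content of 50.5%, against 42.9% in E10.5-only desert regions. The part of base composition in comparisons with them was not tested. Flanking windows held the CTCF core at 1.61%, the ETS motif at 0.62% and the element bound by BMP-regulated SMADs at 0.43%. Each was thus more common in the E10.5-only desert regions than in their flanks. NFY and the E-box were instead more common in flanking windows, at 9.68% and 10.7%. RUNX TGTGGT was in 21.9%, 18.2% and 17.8%, and TCF/LEF CTTTGAT in 8.44%, 6.63% and 5.11%. The PBX-HOX motif TGATNNAT was in 23.4%, 24.2% and 12.8%, TEAD GGAATG in 19.9%, 21.7% and 16.6%, AP-1 TGANTCA in 10.3%, 10.55% and 7.46%, and forkhead TGTTTAC in 5.06%, 6.63% and 3.65%. The E-box CATATG was in 9.94%, 5.12% and 5.29%, with 10.7% of flanking windows, and NFY CCAATC in 8.90%, 9.30% and 10.9%. Several were more common among all E10.5 regions than in either desert class: the CTCF core AGGGGGC was in 3.50%, 6.67% and 10.2%, ETS CCGGAAG in 1.09%, 1.21% and 5.39%, and GGCGCC, an element bound by BMP-regulated SMADs, in 1.23%, 2.20% and 11.2%. T-box AGGTGTGA was in 1.30%, 0.77% and 0.97%, GLI TGGGTGGTC in 0.27%, 0.73% and 0.36%, and the SMAD palindrome GTCTAGAC in 0.19%, 0.39% and 0.31%. CG itself was in 89.97%, 93.7% and 96.2%.

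**Figure D5:**
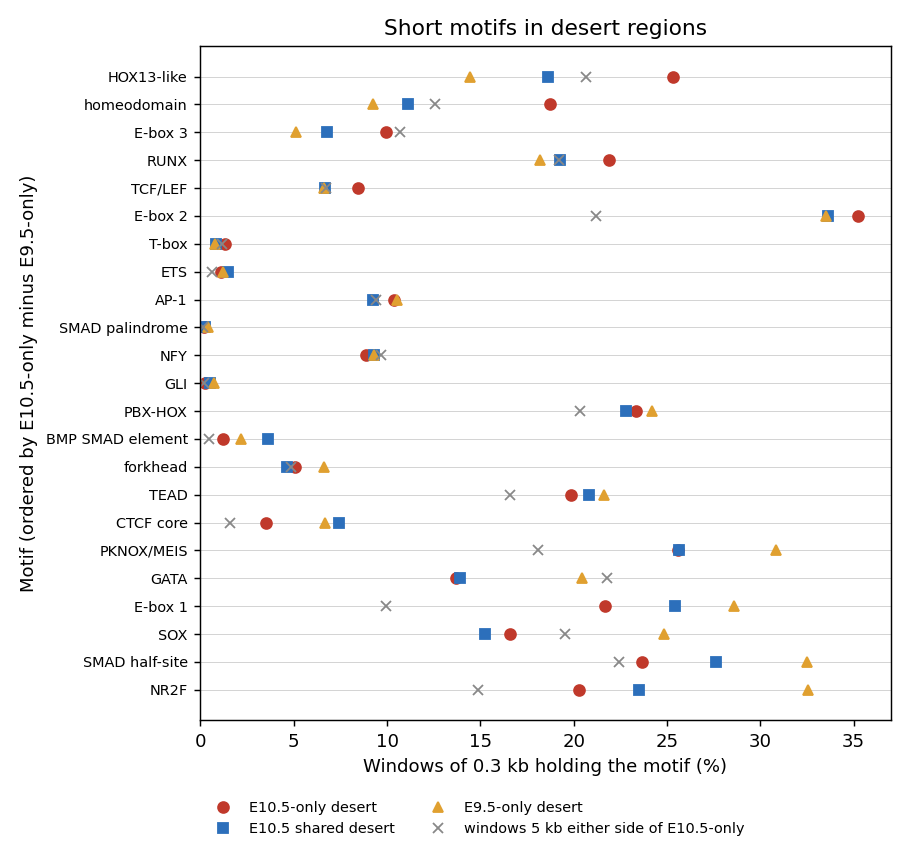
Percentage of 300 bp windows that hold each of 23 short motifs on either strand, for E10.5-only, shared and E9.5-only desert regions and for windows 5 kb to either side of the E10.5-only regions. Motifs are ordered by the E10.5-only minus the E9.5-only value, from the HOX13-like motif (25.3% against 14.5%) at the top to the NR2F motif (20.3% against 32.5%) at the bottom; E-box 1, 2 and 3 are those with 21.7%, 35.2% and 9.94% in the E10.5-only regions.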

How the data were processed

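Forelimb buds of wild-type NMRI embryos were profiled by ATAC-seq at 2 stages with 2 replicates each. The authors aligned reads to mm9 with Bowtie 1.1.0, keeping uniquely mapped reads, called peaks without a control with MACS 1.4 and combined the replicates with MSPC into the deposited lists, which give 1 score per region. Reads that map to several places were thereby lost, and depth, which raises the score, is unknown. Wilson intervals (95%) on shares treat regions as independent and, like the order-statistic intervals on medians, cover counting error only.

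Regions were annotated with GENCODE vM1 on NCBIM37 using Python 3.11.15, NumPy 2.4.6 and SciPy 1.17.1. Region overlap, distances and intervals were tested on simulated data. Desert sequence was counted as the bases, without gaps in the assembly, at least 100 kb from every protein-coding start. A chain joined regions with centres within 20 kb. The text names the 15 stretches with most regions, the 5 densest with 5 or more, the 10 top-scoring regions, the 5 chains with most regions, shorter ones first in a tie, and the 3 leading genes of each gene list, where ties can add one; exceptions are marked, and a few results are not reported here. Motifs were searched on both strands of the central 300 bp, taken as the centre with 150 bases to either side, as was G+C content. The regions, gene lists and motifs were chosen with earlier results of these data known. No test with embryos as replicates was possible.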

Additional observations from a re-analysis of the deposited data

Results flagged for a closer look

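Chromosome X, which the autosomal rule leaves out, held 108 E10.5-only regions at least 100 kb from a coding start, with 36 shared and 35 E9.5-only ones. Their median score was 144 and their median G+C content 42.2%.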

How the results depend on the processing

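No paired analysis was possible because the replicates had been merged before deposit, and no replicate could be left out. Leaving out each autosome in turn kept all 152 values within the limits stated with the totals here. With a limit of 50 kb, 29.0% of the regions lay inside genes, the median score was 163, the median G+C content 43.5% and the share with a neighbour within 20 kb 36.9%. With 200 kb the number of regions fell to 3332, and these values were 13.5% inside genes, 42.2% G+C and 33.0%, with a spacing of 97.4 kb. Counting starts of all gene types left 3694 regions, 23.2% inside genes and a spacing of 103 kb. The higher-scoring 50% of the E10.5 list held 1767 of the regions. Overlap was also called anew between the higher-scoring 50% of each list, so regions overlapping only a lower-scoring E9.5 region counted as E10.5-only. This gave 20.6% inside genes, a median score of 384, a width of 1127 bp, a spacing of 237 kb and 24.0% with a neighbour. Fewer and stronger regions follow from that choice. The median G+C content was 43.6% over 100 bp, 40.8% over 1000 bp and 40.9% over whole regions, and the difference from E9.5-only regions was -4.30 over 1000 bp and -4.35 over whole regions. Of the 10 gene lists, 8 exceeded the density of all deserts, and 9 did at 200 kb. Of 24 motifs, 20 were more common in the regions than in their flanks, and 19 were over 100 bp. Of 260 recomputed values, motif and gene list densities included, 203 stayed within the interval of the value reported (counts within 1.5 times, the G+C difference within 1 SD over autosomes) and 57 moved outside it. The 203 include all 152 values with 1 autosome left out, each of which kept most of the regions.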
